A study of Mus musculus with 6 samples.

Results

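The genes of major histocompatibility complex (MHC) class I and of its peptide supply were followed through the differentiation of MEL cells, a mouse erythroleukemia line. The 10 members were taken by name: H2-K1, H2-D1, B2m, Tap1, Tap2, Tapbp, Psmb8, Psmb9, Psmb10 and Nlrc5. RefSeq accessions were mapped to symbols, and a gene is represented by whichever of its transcripts has most counts on average. All 10 are among the 23896 genes with a symbol, and 9 of them are among the 12381 genes with enough counts to be tested. The cells had received 2% DMSO in suspension culture for 0, 2 or 4 days, where day 0 is the culture before DMSO. Each day has 2 biological replicates, called cultures here, and mRNA from each was sequenced from a stranded library, which gives 6 libraries of 1 cell line. Counts on transcripts came to 43415610 and 53899476 at day 0, 39258359 and 45896399 at day 2, and 35294930 and 45621291 at day 4.

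Class I molecules display peptides from the cell's own proteins to cytotoxic T cells, and they are carried by most nucleated cells. The proteasome cuts the peptides, the TAP transporter moves them into the endoplasmic reticulum, and tapasin and other chaperones help load them onto a heavy chain bound to beta-2 microglobulin. Interferons raise most of these genes together, through IRF factors and through the transactivator NLRC5, which acts at the promoters with the RFX, CREB and NF-Y factors.

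The erythroid label of the cells was checked with marker lists. Summed over 10 erythroid markers, CPM values (counts scaled to a common library size, with TMM factors) were 1170 and 1218 at day 0, 4450 and 5276 at day 2, and 17890 and 20080 at day 4, with Hba-a1 the most abundant. The sum is mostly globin at day 4. Klf1, also on the list, had 192 and 309 CPM at day 0, 160 and 177 at day 2, and 173 and 171 at day 4. It was called lower than at day 0 at days 2 and 4 (-0.57 and -0.54, edgeR adjusted p = 0.0176 and 0.0188), and day 0 replicate 2 stands far above the other libraries. The 7 macrophage markers, led by Fcgr1, summed to 24.3 and 26 CPM at day 0, 8.21 and 6.55 at day 2, and 4.9 and 3.6 at day 4. The 5 T cell markers summed to 50.2 and 41.8 CPM at day 0, 2.04 and 2.5 at day 2, and 1.86 and 0.663 at day 4. Thy1 made up nearly all of the T cell sum at day 0, and Cd8a was at 0 in every library. Both sums were highest at day 0, carried by Fcgr1 and Thy1, but single markers differed. Lyz2 was called higher at day 2 than at day 0 and lower at day 4 than at day 2, and Cd3d was called higher at day 4 than at day 0, from 1 and 1 counts to 13 and 15. The part of these lists in the changes of the members was not tested. The dendritic cell list (5 genes, led by Itgax, with Clec9a and Cd209a at 0) summed to 0.515 and 0.504 CPM at day 0, 0 and 0.0203 at day 2, and 0 and 0.0221 at day 4. The B cell list (4 genes, led by Cd79b, with Ms4a1 at 0) went from 1.57 and 1.17 through 0.168 and 0.183 to 0.0554 and 0.0884. The NK cell list (4 genes, led by Nkg7, with Ncr1, Klrb1c and Gzma at 0) had 0.049 and 0.0403 at day 0 and 0 in the 4 later libraries. The fibroblast list (5 genes, led by Col1a1, with Col3a1 and Dcn at 0) had 2.25 and 3.24, then 1.08 and 1.12, then 0.97 and 1.13. In bulk libraries, fewer cells with a transcript and less of it per cell cannot be told apart.

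The members did not move as a block. The transporter and tapasin transcripts rose, 2 inducible proteasome subunits fell, Psmb9 was highest at day 2, and H2-K1, H2-D1 and B2m passed in none of the 3 edgeR comparisons, although H2-K1 passed in DESeq2 from day 0 to day 4. In edgeR's quasi-likelihood test, with adjusted p below 0.05 as a call, 4 of 9 tested members were higher and 2 were lower at day 2 than at day 0. Among all tested genes 62.5% were called in that comparison, 31% higher and 31.5% lower. Between days 2 and 4, 1 member was higher and 2 were lower, against 30.3% of all tested genes called, 14% higher and 16.2% lower. Between days 0 and 4, 3 members were higher and 2 lower, against 71.8% of all tested genes called, 35.5% higher and 36.4% lower. The members called were 66.7%, 33.3% and 55.6% of the 9 in those comparisons. With 9 genes and no test of the shares, the number of changed members is not read as a result about them. The median log2 fold change of the 9 members was 0.29, -0.21 and -0.01 in those comparisons in turn, beside 0.01, 0.00 and -0.02 for all tested genes. The 3 comparisons share libraries and are not independent of each other.

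**Figure D1:**
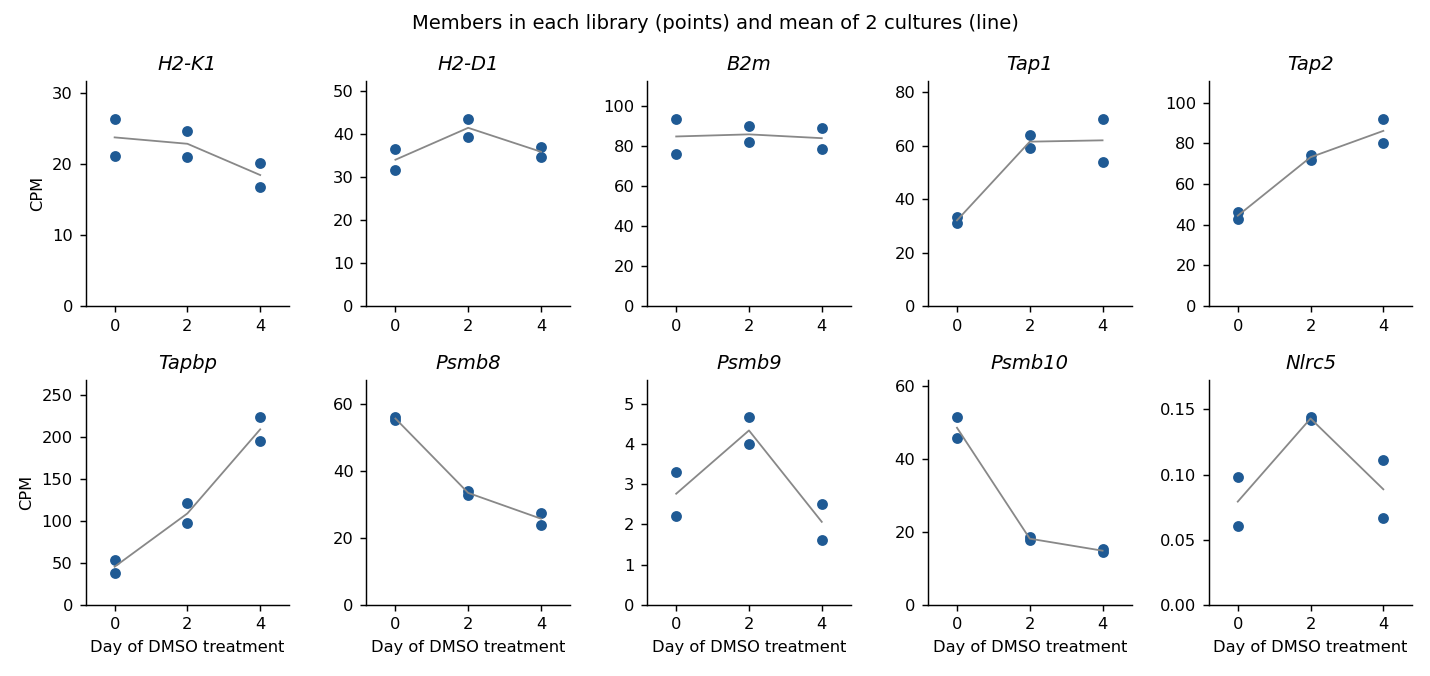
CPM of the 10 members (y axis, 1 panel each, starting at 0) by day of DMSO (x axis), with a point for each library and a line through the mean of 2 cultures. Tapbp rises at each step, Psmb8 and Psmb10 fall, B2m overlaps between all days, and Nlrc5 stays near 0.1 CPM.

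The heavy chains and beta-2 microglobulin were considered first. H2-K1, a classical heavy chain, had 26.4 and 21.1 CPM at day 0, 21 and 24.7 at day 2, and 16.8 and 20.1 at day 4. Its day 4 libraries lay below all others, while days 0 and 2 overlapped. The log2 fold change from day 0 to day 4 was -0.36 (SE 0.15, n = 2 cultures a day), with an adjusted p of 0.0504 in edgeR, just outside the threshold. It passed in DESeq2 (adjusted p = 0.0451), with the factors of relative log expression (edgeR adjusted p = 0.0408), with no filter on low counts (edgeR adjusted p = 0.019), without day 0 replicate 2 (edgeR adjusted p = 0.00349) and without day 4 replicate 2 (edgeR adjusted p = 0.0408). It did not pass with total counts as the scale (-0.25, edgeR adjusted p = 0.16), in a fit of only the 2 days compared (0.0746), with 1 transcript per gene (0.0578) or without day 2 replicate 1 or 2 (0.0702 and 0.0719), and it was -0.20 without day 0 replicate 1 and -0.24 without day 4 replicate 1 (edgeR adjusted p = 0.228 and 0.275). Between days 2 and 4 the value was -0.31 (edgeR adjusted p = 0.144), and it passed in a fit of only the 2 days compared (edgeR adjusted p = 0.0419) and without day 0 replicate 1 or 2 (edgeR adjusted p = 0.0413 and 0.0409), but was -0.19 without day 2 replicate 2 and without day 4 replicate 1 (edgeR adjusted p = 0.548 and 0.497).

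H2-D1, the other classical heavy chain tested, had 36.4 and 31.5 CPM at day 0, 39.2 and 43.5 at day 2, and 34.7 and 36.9 at day 4. Both day 2 libraries were above the rest, and days 0 and 4 overlapped. The log2 fold change from day 0 to day 2 was 0.29 (SE 0.12), with an edgeR adjusted p of 0.0569. Without day 0 replicate 1 it was 0.39 (edgeR adjusted p = 0.00675), and with total counts as the scale it was 0.48 (edgeR adjusted p = 0.00507), where the median of all genes was itself 0.21. Without day 0 replicate 2 it was 0.18 and without day 2 replicate 2 it was 0.21 (edgeR adjusted p = 0.186 and 0.31). Counted per kilobase in the same library, the ratio of H2-D1 to H2-K1 was 1.06 and 1.15 at day 0, 1.44 and 1.35 at day 2, and 1.59 and 1.42 at day 4. The day 0 ratios were below all later ones. These genes are polymorphic, and H2-K1 shares 23.3% of its 31-base words, and H2-D1 27.5%, with transcripts of other genes, mostly other class I genes. Their levels are therefore uncertain.

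B2m, which encodes the light chain shared by class I molecules, had 93.7 and 75.8 CPM at day 0, 89.8 and 81.8 at day 2, and 78.6 and 89.2 at day 4. Every pair of days overlapped. Its log2 fold changes were 0.02, -0.03 and -0.01 (SE 0.13 each, edgeR adjusted p = 0.907, 0.87 and 0.926) from day 0 to day 2, day 2 to day 4 and day 0 to day 4. B2m shares no 31-base word with another gene. Per kilobase of transcript it was the most abundant member at each day, with a mean of 98.5 CPM per kilobase at day 0 (SD 14.7, n = 2), 99.8 at day 2 (SD 6.61) and 97.6 at day 4 (SD 8.72).

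The promoters of these genes are shown because the chains share a compact set of elements. Apart from the kappa B motif, these are elements that the factors above are known to bind. RefSeq promoter windows (GRCm38.p6, 250 bases before to 50 after the start) were matched for 8 of the 10 members, with Tap2 and Nlrc5 named only. Capitals mark matches on either strand to the kappa B motif, the interferon-stimulated response element (ISRE) core in B2m, a form of it with 1 A fewer in H2-K1 and H2-D1 that was added after the sequences were seen, TGACG (the X2 or CRE site) and CCAAT (the Y box, which reads ATTGG on the other strand). The first is the minus strand at chr17:34000359-34000458, which ends 12 bases before the start used by the first of 2 H2-K1 windows in the table, and the next is the plus strand at chr2:122147548-122147638, which ends 49 bases before the B2m start. The RefSeq bounds of H2-K1 reach further upstream, so its piece lies within them. Both pieces lie outside the exons that GENCODE gives these genes.
H2-K1: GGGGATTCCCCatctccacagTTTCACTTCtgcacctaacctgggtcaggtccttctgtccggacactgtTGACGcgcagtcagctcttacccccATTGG
B2m: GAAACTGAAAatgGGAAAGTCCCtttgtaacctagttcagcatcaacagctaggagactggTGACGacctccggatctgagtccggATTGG
H2-D1: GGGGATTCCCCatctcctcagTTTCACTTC

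The H2-D1 piece (plus strand, chr17:35262923-35262952) is cut to 30 bases because GENCODE places the first exon of a longer H2-D1 transcript there. Over the 100 bases from the kappa B motif to the Y box, H2-K1 and H2-D1 of the reference genome are identical at 89 and differ at 11. The promoter sequences of the MEL line itself were not examined and may differ. The fixed ISRE core (GAAA, any 2 bases, GAAA) matched B2m alone of the 8 windows, and it is found in 3.49% of 27025 promoter windows of this length. The form in H2-K1 and H2-D1 has 1 A fewer (GAA, any 2 bases, GAAA). Of all windows 7.56% hold it. Kappa B matched H2-K1, H2-D1 and B2m (8.18% of all windows), TGACG matched these and Tap1 and Psmb9 (21% of all windows), and CCAAT matched 6 of 8 members (37.9% of all windows). The windows of Tap1 and Psmb9 overlap, and their TGACG match is 1 shared site, as is their CCAAT match. A match is a description of the letters and not of a bound site.

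**Figure D2:**
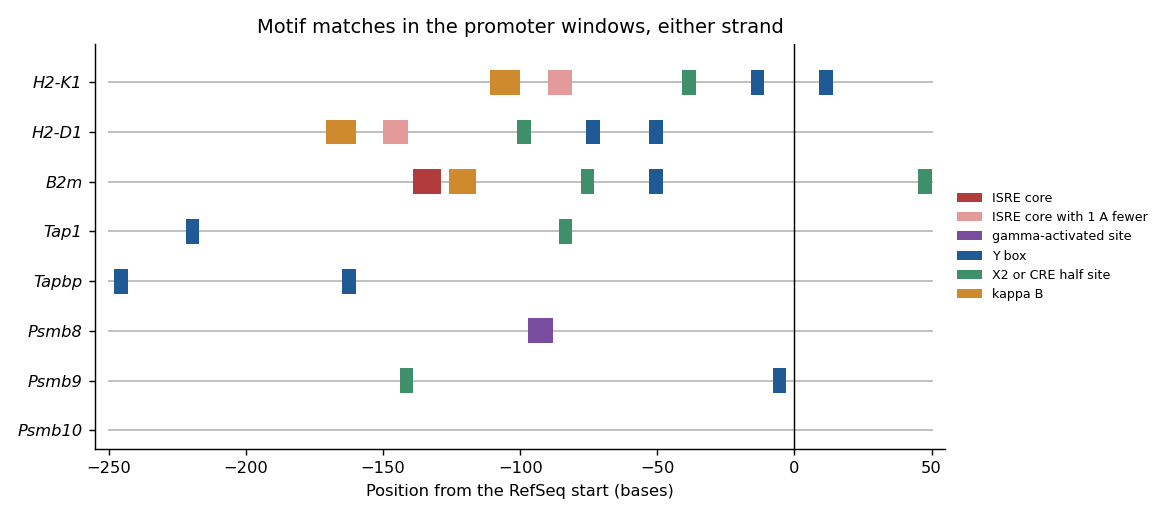
Matches to the 5 fixed motifs and the added ISRE form (colours) in the promoter windows of 8 members, by distance in bases from the RefSeq start (x axis, negative before the start, either strand). The matches from kappa B to the first Y box keep their order and spacing in H2-K1 and H2-D1 but sit 60 bases apart relative to the annotated starts, and Psmb10 holds none.

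The peptide transporter rose. Tap1 had 33.2 and 31 CPM at day 0, 59 and 64.1 at day 2, and 53.9 and 70.2 at day 4. Day 0 was below every later library, and days 2 and 4 overlapped. The rise to day 2 was 1.92-fold (log2 fold change 0.94, SE 0.13, edgeR adjusted p = 0.000125), and the value for day 4 against day 2 was 0.01 (edgeR adjusted p = 0.954). Tap2, the partner of Tap1 in the transporter, had 46.1 and 42.8 CPM at day 0, 71.9 and 74.5 at day 2, and 80.1 and 92.2 at day 4. Its days did not overlap. Tap2 was 1.65-fold higher at day 2 than at day 0 (log2 fold change 0.72, SE 0.11, edgeR adjusted p = 0.000198) and 1.94-fold higher at day 4 than at day 0 (0.95, SE 0.11, edgeR adjusted p = 1.44e-05). Its step from day 2 to day 4 was 0.24 (edgeR adjusted p = 0.122), and it passed in a fit of only those days (edgeR adjusted p = 0.0487) and without day 0 replicate 1 or 2 (0.0491 and 0.0477). It was 0.13 without day 4 replicate 2 and 0.15 with total counts as the scale (edgeR adjusted p = 0.605 and 0.325).

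Counted per kilobase, the ratio of Tap1 to Tap2 was 0.948 and 0.954 at day 0, 1.08 and 1.13 at day 2, and 0.886 and 1 at day 4. Both day 2 ratios were above the rest, and days 0 and 4 overlapped. How close that ratio is to 1 depends on the transcript length, since 952 of the 3442 bases that GENCODE gives Tap2 lie outside the RefSeq gene bounds, whereas its spread over the libraries, relative to its size, does not.

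Tapbp, which encodes tapasin, the bridge between the transporter and the class I molecule, had the largest change from day 0 to day 4 among the 9 tested members. It had 37.4 and 53.5 CPM at day 0, 97.2 and 121 at day 2, and 195 and 224 at day 4. The days did not overlap and each was above the one before. The rise from day 0 to day 4 was 4.61-fold (log2 fold change 2.21, SE 0.18, edgeR adjusted p = 9.43e-07), made up of 1.26 to day 2 (SE 0.17, edgeR adjusted p = 8.69e-05) and 0.94 from day 2 to day 4 (SE 0.17, edgeR adjusted p = 0.0024). Without day 2 replicate 1 the later step was 0.79 (edgeR adjusted p = 0.0621). The ratio of Tapbp to B2m per kilobase was 0.118 and 0.21 at day 0, 0.321 and 0.44 at day 2, and 0.737 and 0.747 at day 4. The ratio rose from day to day without overlap, and Tapbp stayed below B2m in all 6 libraries. Tapbp shares 23.5% of its transcript with Gm19412, an antisense gene. The kit keeps strand, but the strand setting of the counting step is not given in the sources used here, so reads of antisense partners cannot be told apart. The same holds for Tap2 (15% covered by Gm15821 and 4.79% by Gm20496) and Psmb8 (11.4% covered by Gm20496).

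**Figure D3:**
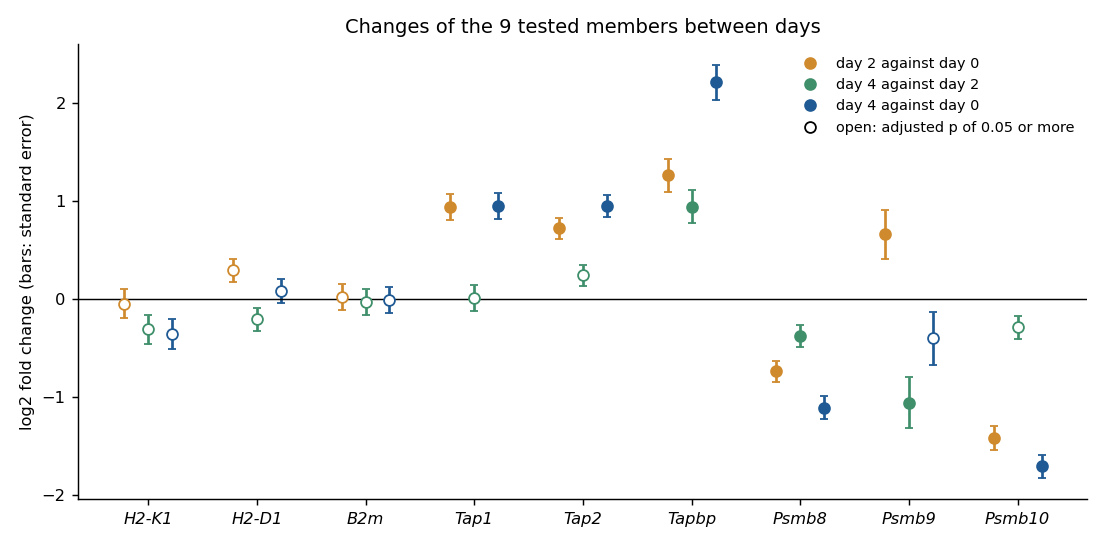
Log2 fold change with its standard error (y axis) of the 9 tested members (x axis) in the 3 comparisons of days (colours), filled where the edgeR adjusted p is below 0.05. Tapbp reaches 2.21 and Psmb10 -1.71 for day 4 against day 0, while no value of H2-K1, H2-D1 or B2m is filled.

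The inducible catalytic subunits of the proteasome, which replace their constitutive counterparts in the immunoproteasome, went another way. Psmb8 had 56 and 55.2 CPM at day 0, 34 and 32.8 at day 2, and 23.9 and 27.5 at day 4. Each day was below the one before, without overlap. It fell by 0.74 on the log2 scale from day 0 to day 2 (SE 0.11, edgeR adjusted p = 0.000217) and by 1.11 from day 0 to day 4 (SE 0.12, edgeR adjusted p = 6.4e-06). The step from day 2 to day 4, -0.38 (edgeR adjusted p = 0.0297), was not called when any 1 library of those days was left out. The step was then -0.35 without day 2 replicate 1, -0.41 without day 2 replicate 2, -0.28 without day 4 replicate 1 and -0.49 without day 4 replicate 2.

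Psmb10 had 51.5 and 45.7 CPM at day 0, 18.6 and 17.7 at day 2, and 14.4 and 15.3 at day 4. The days did not overlap and most of the fall came by day 2. It fell by 1.42 on the log2 scale from day 0 to day 2 (SE 0.12, edgeR adjusted p = 3.35e-06) and by 1.71 from day 0 to day 4 (SE 0.12, edgeR adjusted p = 4.5e-07), a level 3.27 times lower. The step from day 2 to day 4 was -0.29 (edgeR adjusted p = 0.0961). It passed with total counts as the scale (edgeR adjusted p = 0.044), in a fit of only those days (0.0402) and without day 0 replicate 1 or 2 (0.0317 and 0.0311).

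Psmb9 was the least abundant of the 9 tested members per kilobase at each day. It had 3.31 and 2.22 CPM at day 0, 4.67 and 4.01 at day 2, and 1.61 and 2.52 at day 4. Both day 2 libraries were above the rest, and days 0 and 4 overlapped. The rise to day 2 was 0.66 on the log2 scale (SE 0.25, edgeR adjusted p = 0.0384) and the later change was -1.06 (SE 0.26, edgeR adjusted p = 0.0111). The rise was not called in DESeq2 (adjusted p = 0.0807), nor in edgeR without day 0 replicate 2, day 2 replicate 1 or day 2 replicate 2 (0.38, 0.54 and 0.77, adjusted p = 0.204, 0.208 and 0.0859), and without day 0 replicate 1 it was 0.96 (edgeR adjusted p = 0.00485). The later fall was -0.95, -1.17 and -0.78 without day 2 replicate 1, day 2 replicate 2 or day 4 replicate 1, and was not called in edgeR there. For day 4 against day 0 the value was -0.40 (SE 0.27, edgeR adjusted p = 0.197), and it depended on single libraries. It was -0.67 and -0.78 without day 0 replicate 2 or day 4 replicate 2 (edgeR adjusted p = 0.0331 and 0.0476), and -0.09 and -0.12 without day 0 replicate 1 or day 4 replicate 1 (edgeR adjusted p = 0.776 and 0.711).

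Each inducible subunit was set against the constitutive one it replaces, as its share of the pair's counts per kilobase. Psmb8 made up 27.2% and 21.1% of the pair with Psmb5 at day 0, 35.4% and 34.7% at day 2, and 37.7% and 42.2% at day 4. The share was lowest at day 0 and the days did not overlap, although both transcripts fell. Psmb5 fell by 2.21 on the log2 scale from day 0 to day 4 (SE 0.15, edgeR adjusted p = 2.88e-07), and 74% of its 31-base words occur in other genes, mainly pseudogenes, so its level is uncertain. Psmb10 made up 20.9% and 20% of the pair with Psmb7 at day 0, 19.6% and 19.9% at day 2, and 18.5% and 19.7% at day 4. Psmb7 fell alongside Psmb10, and its log2 fold change from day 0 to day 4 was -1.58 (SE 0.10, edgeR adjusted p = 2.58e-07). Psmb9 made up 1.69% and 0.859% of the pair with Psmb6 at day 0, 4.89% and 3.86% at day 2, and 1.48% and 2.2% at day 4. Only the day 2 shares stood above the others in this pair. The shares were not tested. A two-sided exact permutation of 2 libraries against 2 cannot go below p = 0.333.

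**Figure D4:**
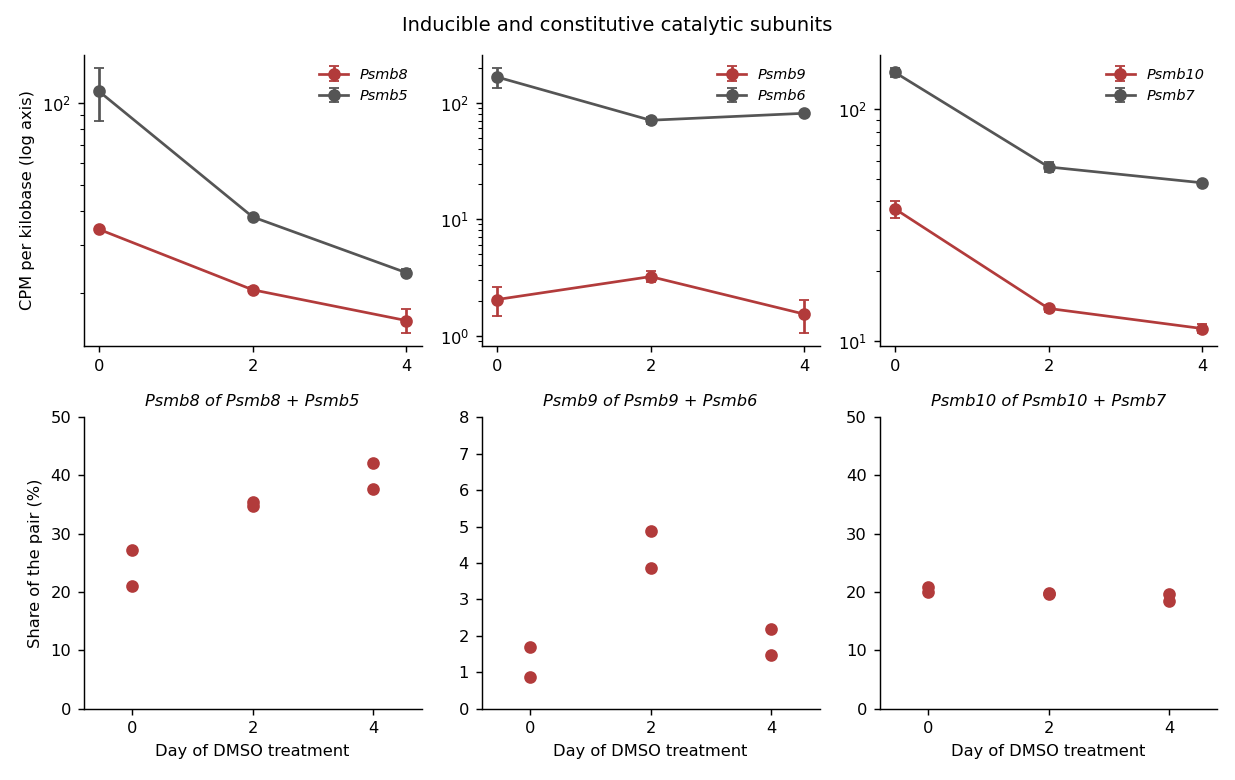
Top, CPM per kilobase on a log axis (mean, bars SD of 2 cultures) of each inducible subunit and its constitutive counterpart by day. Bottom, the inducible subunit's share of the pair in each library, with an axis that ends at 8% for Psmb9 and at 50% for the other pairs. Psmb5 falls further than Psmb8, and the Psmb10 share lies between 18.5% and 20.9% in all 6 libraries.

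The neighbours Psmb9, Tap1, Psmb8 and Tap2 lie in that order within 34292 bases of chromosome 17 and are the only genes of the RefSeq table there, and they showed 3 different courses. Psmb9 and Tap1 are read away from each other, with 225 bases between their RefSeq starts. The ratio of Tap1 to Psmb9 per kilobase was 5.19 and 7.24 at day 0, 6.53 and 8.27 at day 2, and 17.4 and 14.4 at day 4. Days 0 and 2 overlapped and day 4 was above both. The end of Tap1 and the start of Psmb8 are 969 bases apart, and the ratio of Psmb8 to Tap1 was 2.71 and 2.86 at day 0, 0.924 and 0.821 at day 2, and 0.71 and 0.629 at day 4. The ratio was highest at day 0 and each day was below the one before. The GENCODE transcript matched to Psmb9 runs past the RefSeq start and overlaps 212 bases of Tap1 on the other strand. Of its 1352 bases 477 lie outside the RefSeq bounds, as do 405 of the 1628 of Psmb8. The absolute size of these ratios and shares can therefore not be read. Their course may also be affected by reads of antisense partners and by the shared words of Psmb5, both given above. Psmb6 and Psmb7 also share 31-base words with other genes (15.4% and 4.07%), which may affect the shares of Psmb9 and Psmb10.

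Short pieces of these promoters show the matches nearest the starts. The Tap1 piece is the plus strand at chr17:34187457-34187486 with TGACG in capitals, and the Psmb8 piece is the plus strand at chr17:34198087-34198116 with the gamma-activated site (TTC, any 3 bases, GAA) in capitals, a motif that 8.47% of all windows hold. GENCODE has exons of longer transcripts over both, so 30 bases of each are given.
Tap1: gcccagagacaggTGACGacagagggtcct
Psmb8: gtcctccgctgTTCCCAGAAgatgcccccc

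Nlrc5, the class I transactivator, was counted 4 and 3 times at day 0, 6 and 7 times at day 2, and 4 and 3 times at day 4. The sums of 7, 13 and 7 have exact Poisson intervals (95%, counting error only) of 2.81 to 14.4, 6.92 to 22.2 and 2.81 to 14.4, which overlap. No difference between days was detectable at this depth, and Nlrc5 did not pass the filter. Per kilobase it had a mean of 0.0114 CPM at day 0, beside 98.5 for B2m.

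Per kilobase, the order of the members changed with the days. At day 0 it was B2m, Psmb10, Psmb8, H2-D1, Tapbp, H2-K1, Tap2, Tap1, Psmb9 and Nlrc5, and neighbours from H2-D1 to Tap1 overlapped between libraries. At day 4 it was B2m, Tapbp, Tap2, Tap1, H2-D1, Psmb8, H2-K1, Psmb10, Psmb9 and Nlrc5, where Tap2 and Tap1, H2-D1 and Psmb8, and H2-K1 and Psmb10 overlapped. Psmb10 moved from 37.1 CPM per kilobase at day 0 (SD 3.17) to 11.3 at day 4 (SD 0.488), and Tapbp from 15.7 (SD 3.95) to 72.4 (SD 7.13). With lengths cut to the RefSeq bounds, B2m was still first and Tapbp still second at day 4, while other places changed. At day 0 Psmb8 passed Psmb10, and Tap2 passed Tapbp and H2-K1. At day 2 Tap2 and Psmb8 passed Tap1, as did H2-D1, and Psmb10 passed H2-K1. At day 4 Psmb8 passed H2-D1 and Psmb10 passed H2-K1.

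Profiles of tested genes whose log2 CPM averages 1 or more were compared over the 6 libraries, by the distance between centred log2 CPM values. The nearest to H2-K1 among 10453 genes were Fam110a, Oas1a and Naip6, at distances of 0.143, 0.168 and 0.187 beside a median of 0.944. The nearest to Tap1 were Fam234b, Aldh2 and Endod1 (0.103, 0.131 and 0.133, median 1.28). Tap2 ranked 98 for Tap1 at 0.293, whereas Psmb9, its neighbour on the chromosome, ranked 6314 at 1.5. Nlrc5 had too few counts to be compared.

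The other genes of the pathway were taken as 7 lists of 96 genes, of which 78 were tested, with 2 pairs of heavy chains that have identical counts. From day 0 to day 2, 29 rose and 20 fell, from day 2 to day 4, 11 and 8, and over the whole course 33 and 24, with medians of 0.09, 0.05 and 0.21. The called genes were 62.8%, 24.4% and 73.1% of the 78, beside 62.5%, 30.3% and 71.8% of all tested genes, so these counts are not a result about the pathway. The lists had different medians, and the differences between lists were not tested. Of all tested genes 35.5% were higher and 36.4% lower at day 4 than at day 0. Of 20 regulators tested, 13 were higher and 3 lower at day 4 than at day 0 (median 0.71), and of 9 interferon receptor and signalling genes 8 were higher (median 0.94), beside a median of -0.02 for all tested genes. Among the ER chaperones of peptide loading 5 of 8 were lower and 2 higher (median -1.02).

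Irf7, an interferon-induced factor, had 0.76 and 0.584 CPM at day 0, 8.17 and 10.6 at day 2, and 9.53 and 17.2 at day 4. Day 0 was far below all later libraries, and days 2 and 4 overlapped. Its log2 fold change from day 0 to day 4 was 4.33 (SE 0.32, edgeR adjusted p = 6e-07). Stat2 and Irf9, which transmit interferon signals to the promoter, rose by 1.36 and 1.17 on the same scale (edgeR adjusted p = 1.25e-06 and 6.07e-06), and Irf1 by 1.09 (edgeR adjusted p = 0.000138). Among the RFX subunits, which are partners of NLRC5 at class I promoters, Rfxank rose by 1.60 (edgeR adjusted p = 5.75e-06) and Rfx5 by 0.65 (edgeR adjusted p = 0.000125), while Rfxap was at -0.14 (edgeR adjusted p = 0.364). The 3 regulators called lower at day 4 than at day 0 were Atf1, Nfyc and Nfkb1 (-0.78, -0.50 and -0.30, edgeR adjusted p = 7.27e-05, 0.0308 and 0.0206). Creb1, Nfya and Rela, among those called higher, were at 0.78, 0.60 and 0.63 (edgeR adjusted p = 4.93e-05, 0.000432 and 0.000865). The class II transactivator Ciita had 4 counts in all libraries together, and Irf8 had 0.

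In interferon signalling, Socs3, a feedback inhibitor of cytokine receptors, had 1.05 and 1.35 CPM at day 0, 5.32 and 6.53 at day 2, and 10.9 and 14.5 at day 4. Each day was above the one before. Its log2 fold change from day 0 to day 4 was 3.39 (SE 0.22, edgeR adjusted p = 2.39e-07). The kinases Tyk2, Jak1 and Jak2 rose by 1.37, 0.94 and 0.88, and the receptor chain Ifngr2 by 0.98 (edgeR adjusted p = 2.13e-06, 1.35e-05, 2.8e-05 and 7.23e-05).

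The chaperones Calr, Canx and Pdia3, which work with tapasin in the loading complex, were called lower at day 4 than at day 0, unlike Tap1, Tap2 and Tapbp. Calr, which encodes calreticulin, had 1819 and 2157 CPM at day 0, 601 and 676 at day 2, and 700 and 788 at day 4. Day 0 was above all later libraries, and day 4 lay slightly above day 2. The log2 fold change from day 0 to day 4 was -1.42 (SE 0.14, edgeR adjusted p = 5.53e-06). Pdia3, the disulfide isomerase bound to tapasin, was at -1.17, and the chaperone Canx at -1.01 (edgeR adjusted p = 4.98e-06 and 1.02e-05). The general ER chaperones Hsp90b1 and Hspa5 were at -1.65 and -1.02 (edgeR adjusted p = 1.57e-06 and 5.32e-05). Tapbpl, a relative of tapasin that edits peptides, was at 0.01.

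Of the 9 enzymes that trim or supply peptides, 3 were higher and 4 lower at day 4 than at day 0. The share called was 77.8%, beside 71.8% of all tested genes, so the count is not read as a result about them. Erap1, the aminopeptidase that trims peptides in the ER, had 22.8 and 19.9 CPM at day 0, 47.6 and 45.7 at day 2, and 53.8 and 58.1 at day 4. The days did not overlap, and day 4 was highest. From day 0 to day 4 it rose by 1.39 on the log2 scale (SE 0.12, edgeR adjusted p = 1.39e-06). Lnpep, an aminopeptidase of endosomes, rose by 0.74 (edgeR adjusted p = 8.56e-05). The cytosolic peptidases Lap3, Thop1 and Blmh were at -1.89, -1.87 and -0.91 (edgeR adjusted p = 1.56e-07, 2.43e-07 and 2.09e-05).

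Among 10 constitutive catalytic subunits and activators 5 were lower and 2 higher, so 70% were called beside 71.8% of all tested genes. Psmb6 and Pomp, the proteasome maturation factor, were at -1.04 and -1.19 (edgeR adjusted p = 3.72e-05 and 1.01e-05), and Psme4, which encodes the PA200 activator, rose by 0.59 (edgeR adjusted p = 0.000523). Psme1 and Psme2, the interferon-inducible activator subunits, were at -0.14 and 0.36 and were not called (edgeR adjusted p = 0.338 and 0.0702). Psme2b, listed beside Psme2, was at -0.08 (edgeR adjusted p = 0.543). It had 9729 counts in all libraries together, beside 1911 for Psme2. Shared words were not counted for these genes.

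Of 18 other class I and class I-like heavy chains tested among 28 listed, 5 were higher and 5 lower at day 4 than at day 0. H2-Q6 and H2-Q8, and H2-Q7 and H2-Q9, were counted as 2 genes each. The share called was 55.6%, beside 71.8% of all tested genes, of which 35.5% were higher and 36.4% lower. These counts are not read as a result about the list. Mr1, which presents microbial metabolites, had 8.77 and 9.11 CPM at day 0, 24.1 and 22.5 at day 2, and 20.4 and 23.4 at day 4. Days 2 and 4 overlapped, and both were above day 0. The log2 fold change from day 0 to day 4 was 1.29 (SE 0.13, edgeR adjusted p = 4.81e-06). H2-T23, the mouse Qa-1 chain, rose by 0.69 (edgeR adjusted p = 0.00107), and its day 4 libraries, at 9.75 and 9.61 CPM, lay above the others. H2-Q1 was at -1.30 (edgeR adjusted p = 0.00167). H2-Q6 and H2-Q8 have identical counts in every library, as do H2-Q7 and H2-Q9, so they are not separate measurements, and H2-Q6 and H2-Q8 were called lower with -0.63 (edgeR adjusted p = 0.0057). Of 10 class II genes 4 were tested, and H2-Aa, H2-Ab1 and H2-Eb2 were at 0. H2-DMb2 and H2-Oa were lower at day 4 than at day 0 (-1.26 and -3.33, edgeR adjusted p = 0.0401 and 1.07e-05). Both rest on few counts. H2-DMb2 had 11 and 16 counts at day 0 and 4 and 6 at day 4, and H2-Oa had 86 and 190, then 9 and 15. H2-Oa was also called lower from day 0 to day 2 and from day 2 to day 4 (-1.39 and -1.95, edgeR adjusted p = 0.00188 and 0.00495). H2-DMa, a class II peptide exchange chain, had 5.27 and 7.13 CPM at day 0, 8.12 and 9.1 at day 2, and 6.76 and 7.6 at day 4. It was called higher at day 2 than at day 0 (0.47, edgeR adjusted p = 0.0346).

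**Figure D5:**
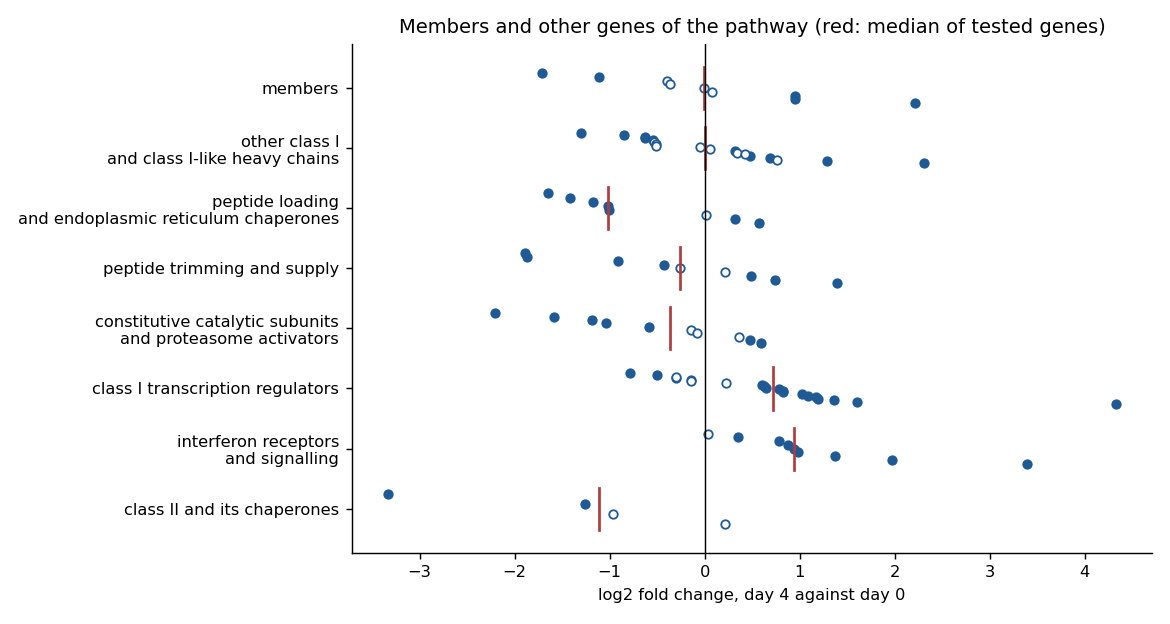
Log2 fold change for day 4 against day 0 (x axis) of each tested gene in the members and the 7 other lists (y axis), filled where the edgeR adjusted p is below 0.05, with a red bar at the list median. Regulators and interferon signalling lie mostly to the right of 0, ER chaperones to the left, and the members spread from -1.71 to 2.21.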

How the data were processed

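What the authors deposited is a raw count for each RefSeq transcript in each library. Their notes and methods name cutadapt for trimming, TopHat 2.1.0 for alignment to mm10 with library type fr-secondstrand, and HTSeq and DESeq2. Other versions, and the strand and overlap settings of the counting step, are not given in the sources used here. Reads on no feature were left out. They made up 50.5% to 58.4% of the sum of these reads and the counts on transcripts. Ambiguous and multiply aligned reads are listed at 0.

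Of 32654 transcripts, 32199 matched a RefSeq table (GRCm38.p6) and 187 GENCODE M21 symbols. GENCODE lengths gave CPM per kilobase. Days were compared with edgeR 4.0.16 under R 4.3.3, using TMM factors, filterByExpr by day (18351 transcripts kept), 1 quasi-likelihood fit with a mean per day over 6 libraries, and Benjamini-Hochberg adjustment over all tested transcripts. Standard errors are the log2 fold change over the root of F. The code was first tested on simulated counts.

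Named genes are the members, up to 5 called genes per list with the largest change for day 4 against day 0 and average log2 CPM of at least 1, listed partners of members, and the 3 nearest profiles. The nearest profiles of B2m and 1 listed regulator are not reported. The members and lists were chosen with earlier results of these data known. H2-T23's levels, H2-DMa, H2-DMb2, H2-Oa, Psme2b, Atf1, Nfyc, Nfkb1, Creb1, Nfya, Rela, the single markers and the genes at 0 were picked after their values were seen.

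Alternatives were DESeq2 1.42.0, relative log expression factors, total counts, scaling without globins, no filter, only the days compared, a replicate block, a fit on 1 transcript per gene, the longest transcript, a log2 fold change of at least 1, raw counts for shares, and leaving out each library. The added ISRE form and RefSeq-bounded lengths were chosen after seeing the data.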

Additional observations from a re-analysis of the deposited data

How the results depend on the processing

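Of 405 member fold changes under alternatives (the size limit aside), 373 stayed on the same side of the threshold, 13 were no longer called, 19 became called, and no called value changed sign. Of the 373, 16 changed sign without being called in either fit. The 405 include the longest transcript, which gave the same value as the main fit for every member and so moved nothing. Total counts moved the median of all genes to 0.21, -0.09 and 0.10, and turned 3841 higher and 3902 lower genes into 5001 and 2881 (day 2 against day 0) and 1739 and 2010 into 1228 and 2532 (day 4 against day 2). Tap1, Tap2, Tapbp, Psmb8 and Psmb10 kept their calls for day 4 against day 0 and day 2 against day 0 in every alternative but the size limit. Where a cause is not named it was not tested.

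When calls also needed a log2 change of 1 or more in size, members higher and lower numbered 1 and 1 (day 2 against day 0) and 0 and 1 (day 4 against day 2), and 1 was higher for day 4 against day 0. Pathway genes then numbered 9 and 11, 2 and 2, and 13 and 14. Fitting only days 2 and 4 gave 2 members higher, 4 lower, and 14 pathway genes lower. Total counts gave 7 pathway genes higher for day 4 against day 2.

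Leaving out 1 library gave 3 to 5 members higher for day 2 against day 0. It gave, for day 4 against day 2, 0 to 2 members higher (0 without day 2 replicate 1, 2 without either day 0 library) and 0 to 4 lower (0 without day 2 replicate 1, day 2 replicate 2 or day 4 replicate 1, 1 without day 4 replicate 2, 4 without either day 0 library). For day 4 against day 0, 2 to 4 members were lower (4 without day 0 replicate 2 or day 4 replicate 2). Pathway genes higher ranged from 18 (without day 2 replicate 2) to 31 for day 2 against day 0 and from 2 (without day 2 replicate 1) to 15 for day 4 against day 2, where lower ones ranged from 2 (without day 2 replicate 1) to 14. A lone library is assumed to vary like the other days.

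From raw counts the Psmb8 share was 36.5%, 49.4% and 54.6% at days 0, 2 and 4, that of Psmb9 2.13%, 7.19% and 3.08%, and that of Psmb10 22.5%, 21.7% and 21%. With RefSeq-bounded lengths, chosen after seeing the data, they were 29.1%, 41% and 46.1%, 1.95%, 6.6% and 2.81%, and 19%, 18.3% and 17.7%. The order of days held.

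The replicate numbers did not pair the libraries, with correlations of deviations of 0.0316, 0.0451 and 0.0791. With the replicate block, from day 0 to day 2 there were 3 members higher and 2 lower (Psmb9 at adjusted p = 0.0517 in edgeR), 1 and 2 for day 4 against day 2, and 3 and 2 for day 4 against day 0. Pathway genes numbered 29 and 20, 12 and 8, and 33 and 24. Day 0 replicates lay farthest apart, with a chi-square per degree of freedom of 58.9 against 10.5 and 16.4 at days 2 and 4. With 2 cultures a day, small changes of the size seen in H2-K1 and H2-D1 lie at the limit of what can be called.

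Each day has 2 cultures of 1 line, and the 6 libraries include no culture kept without DMSO to days 2 and 4, so time in culture and DMSO cannot be separated. CPM are relative to the other transcripts of a library, and the total RNA per cell is not known. Transcripts were counted, not proteins, surface molecules or peptide presentation.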
